A study of Homo sapiens with 15 samples.

Results

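The nuclear genes for subunits and named assembly factors of the mitochondrial respiratory chain were followed in human HEK293T cells under 4 treatments. Members were the genes of the count table whose symbols begin with NDUFA, NDUFB, NDUFC, NDUFS, NDUFV (which take in the NDUFAF assembly factors), SDHA, SDHB, SDHC, SDHD, UQCR, COX4, COX5, COX6, COX7 or COX8, without 1 readthrough row whose name holds a hyphen. This gave 73 of the 13243 genes in the table. By role they were 7 core and 30 accessory subunits of complex I, 7 complex I assembly factors (NDUFAF1 to NDUFAF7), 4 subunits and 4 assembly factors of complex II, 9 complex III genes, 11 complex IV subunits and COX7A2L. NDUFA4 was counted with complex IV, of which it is a subunit despite its name. COX4I2, COX6A2, COX6B2, COX7A1, COX7B2, COX8C, NDUFA4L2, NDUFAF8 and the 13 protein-coding genes of mitochondrial DNA were not analysed here.

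HEK293T is an established human embryonic kidney cell line. Cells were exposed for 4 h to the vehicle DMSO (3 libraries), to IXA1 (2 libraries used), IXA4 (3) or IXA6 (3), which the series describes as activators of the IRE1/XBP1s arm of the unfolded protein response, or to thapsigargin (Tg, 3), described as an activator of the whole response. The labels give no dose and describe 3 independent experiments. Every group was the same line without any stated genetic change, so the treatment is the only stated difference between groups.

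Complex I passes electrons from NADH, and complex II from succinate, to ubiquinone. Complex III hands them to cytochrome c and complex IV to oxygen, and complexes I, III and IV pump protons that drive ATP synthase. Apart from complex II, each complex joins nuclear-encoded subunits to others made from mitochondrial DNA, with the help of assembly factors that are not part of the finished enzyme. Thapsigargin empties the calcium store of the endoplasmic reticulum by inhibiting the SERCA pump, and the resulting stress engages every sensor of the unfolded protein response.

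Promoters are shown for the member that rose with Tg and for the 3 that fell most, because nuclear respiratory chain genes are known to share binding motifs of the factors NRF1 and GABP. The RefSeq promoter table (GRCh38.p14) held 62 of the 73 members. In the 250 bases before the transcription start, searched on both strands, the NRF1 motif (GCGCA, any base, then GCGC) was present in 12 of the 62 (19.4%), against 10.2% of the 10225 promoters of genes in the count table and 5.07% of all 35116 promoters. The 12 were NDUFA3, NDUFA9, NDUFA11, NDUFA12, NDUFB4, SDHA, SDHAF3, SDHAF4, SDHD, UQCR11, UQCRC1 and UQCRFS1. The GABPA motif CCGGAAGTG was present in 4 (6.45%), NDUFA13, NDUFS1, SDHAF2 and UQCRH, against 3.82% of count-table promoters and 1.85% of all. The XBP1s motif TGACGTGG, the ERSE motif (CCAAT, any 9 bases, then CCACG) and the YY1 motif AAGATGGCG were in none of the 62. Their shares of count-table promoters were 0.763%, 0.147% and 1.05%, and of all promoters 0.612%, 0.074% and 0.652%. The ATF4 motif TGATGNAA was in 1 (NDUFS6, 1.61%), against 1.34% of count-table promoters and 3.14% of all. No motif overlapped another in the printed windows. The windows read 5′ to 3′ on the strand of the gene, with motif letters in capitals. They were NDUFAF4 at chr6:96897892-96898141 (minus strand, no motif of those searched), SDHAF2 at chr11:61429874-61430123 (plus strand, 2 GABPA matches, the first on the opposite strand), NDUFB4 at chr3:120596086-120596335 (plus strand, 2 NRF1 matches) and NDUFB3 at chr2:201071751-201072000 (plus strand, no motif of those searched).
NDUFAF4: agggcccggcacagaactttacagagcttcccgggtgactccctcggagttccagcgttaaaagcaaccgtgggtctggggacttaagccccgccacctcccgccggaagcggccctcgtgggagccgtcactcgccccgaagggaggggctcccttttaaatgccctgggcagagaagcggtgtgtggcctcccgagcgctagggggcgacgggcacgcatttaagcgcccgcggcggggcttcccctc
SDHAF2: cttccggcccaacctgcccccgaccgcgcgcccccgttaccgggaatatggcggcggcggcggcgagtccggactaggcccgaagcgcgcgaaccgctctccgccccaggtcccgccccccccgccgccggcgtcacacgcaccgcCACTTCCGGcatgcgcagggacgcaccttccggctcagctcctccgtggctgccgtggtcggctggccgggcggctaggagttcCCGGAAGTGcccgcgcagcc
NDUFB4: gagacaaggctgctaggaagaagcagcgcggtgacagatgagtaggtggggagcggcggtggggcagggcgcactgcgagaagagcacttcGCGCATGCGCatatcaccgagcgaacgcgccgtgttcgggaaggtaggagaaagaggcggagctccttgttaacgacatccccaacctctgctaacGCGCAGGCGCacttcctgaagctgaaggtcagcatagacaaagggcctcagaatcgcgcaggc
NDUFB3: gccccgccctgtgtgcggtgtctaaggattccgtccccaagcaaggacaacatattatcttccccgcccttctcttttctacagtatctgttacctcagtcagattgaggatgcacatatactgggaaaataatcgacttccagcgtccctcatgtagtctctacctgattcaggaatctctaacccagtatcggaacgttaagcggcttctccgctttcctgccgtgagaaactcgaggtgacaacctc

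Libraries held between 14160321 and 15726742 counts, of which members took 0.715% to 0.796%. BiP (HSPA5) rose with every treatment, with log2 fold changes of 0.65 ± 0.05 (SE) for IXA1, 0.69 ± 0.05 (SE) for IXA4, 0.71 ± 0.05 (SE) for IXA6 and 3.33 ± 0.05 (SE) for Tg (edgeR quasi-likelihood test, adjusted p of at most 2.51e-08). Of the other stress markers listed, XBP1 also rose with every treatment (from 0.83 ± 0.05 (SE) with IXA6 to 1.89 ± 0.05 (SE) with Tg, adjusted p of at most 6.93e-11). DDIT3 (CHOP) rose with IXA6, by 0.46 ± 0.12 (SE), adjusted p = 0.0353, and with Tg, by 4.27 ± 0.09 (SE), adjusted p = 3.00e-21, and gave 0.28 ± 0.13 (SE), adjusted p = 0.308, with IXA1 and 0.20 ± 0.12 (SE), adjusted p = 0.658, with IXA4. The 7 markers listed for the line (KRT8, KRT18, VIM, CDH2, PAX2, NEFL, NEFM) were all in the table, and of 9 markers of blood, liver, vessel, fibroblast and muscle cells the table held 1, COL1A1, at 9.29 to 14.3 CPM (the count of a gene scaled to a common library size). Differences below are log2 fold changes from 1 edgeR quasi-likelihood fit over all 14 libraries, with p adjusted by Benjamini-Hochberg over all 13243 genes. A gene is said to have risen, fallen or been called when the adjusted p was under 0.05, and levels are CPM after TMM scaling. No member was lost to the filter on low counts, which removed 0 genes.

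Per kilobase of transcript (median-length principal transcript of GENCODE v29), the DMSO level of the 61 subunit genes had a median of 102.2 CPM per kb and a range of 9.25 to 397.9. The 11 assembly factors, which are needed in small amounts, had a median of 12.3 CPM per kb and a range of 2.47 to 52.2, so the ranges overlapped. The lowest subunit values were those of NDUFA9 and SDHC, at 9.25 and 10.0 CPM per kb. Their transcripts measured 8363 and 13566 bases, where the median of members was 991. Before division by length their mean DMSO levels were 77.4 and 136.3 CPM. By complex, the median subunit level was 66.1 CPM per kb for the complex I core, 96.0 for its accessory subunits, 57.0 for complex II, 114.5 for complex III and 279.3 for complex IV. With the longest instead of the median principal transcript the subunit median was 86.5 CPM per kb, and the assembly factor median was 12.3 either way. Within groups, members varied about as much as or less than other genes: the median SD of log2 CPM was 0.074 for members and 0.080 for all genes in DMSO, and 0.072 against 0.112 in Tg.

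The respiratory chain genes as a group stayed close to their DMSO level in all 4 treatments. The summed level of the 73 members was 7639 ± 276.0 CPM in DMSO (SD, n = 3), 7842 ± 176.0 with IXA1 (n = 2), 7664 ± 185.9 with IXA4 (n = 3), 7726 ± 117.7 with IXA6 (n = 3) and 7550 ± 154.6 with Tg (n = 3), differences within the spread of the libraries. Before TMM scaling, the share of counts was 0.773% ± 0.0225 in DMSO and 0.728% ± 0.0118 in Tg, so the Tg sum lies lower when only the library total is used. The median log2 fold change of members was 0.042 with IXA1, 0.003 with IXA4, 0.001 with IXA6 and 0.007 with Tg, beside -0.005, -0.002, 0.001 and -0.008 for all genes. In bulk RNA, a lower level in every cell and fewer cells with the transcript cannot be told apart. Levels scaled to library size show neither cell number nor total RNA per cell.

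**Figure D1:**
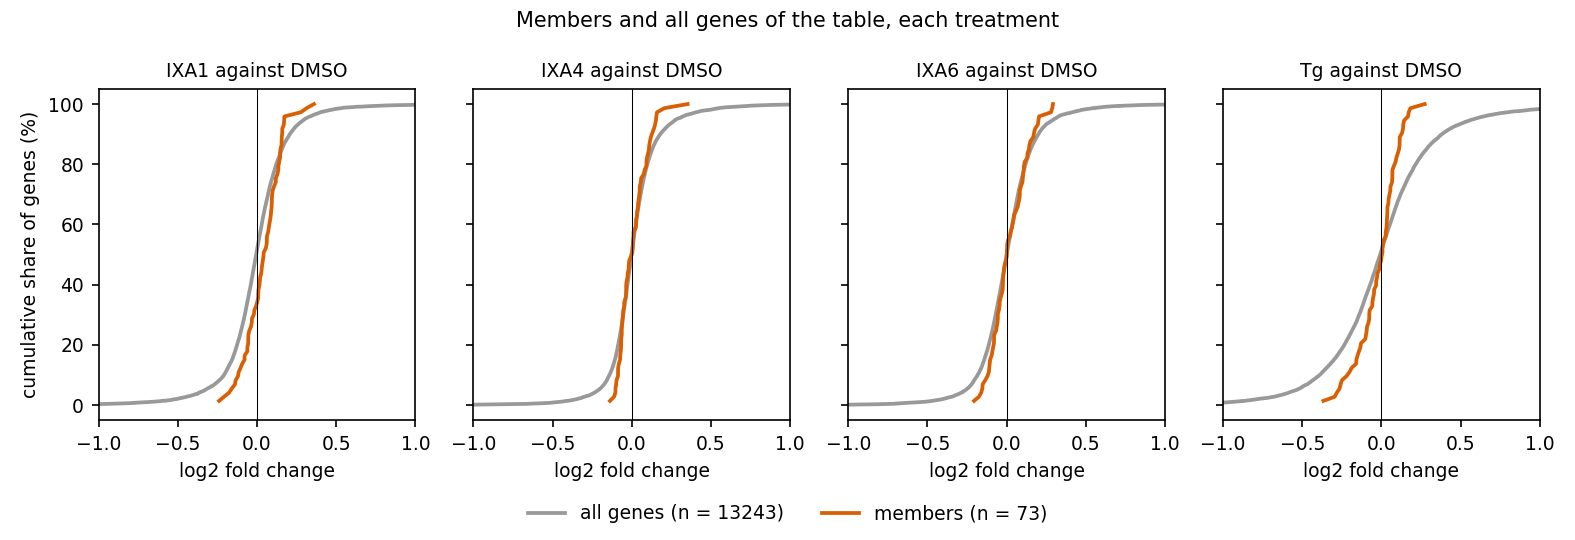
Cumulative share of genes (percent, vertical axis) at or below each log2 fold change against DMSO (horizontal axis, cut at -1 and 1), 1 panel per treatment, for the 73 members (orange) and all 13243 genes (grey). With Tg the interquartile range of the members runs from -0.09 to 0.07, and that of all genes from -0.18 to 0.16.

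Tg changed 11 of the 73 members, all by less than 1.3-fold in the estimate: NDUFAF4 rose, and SDHAF2, NDUFB4, NDUFB3, NDUFAF1, NDUFA2, NDUFA8, SDHD, COX6B1, UQCRFS1 and SDHC fell. The 11 were 15.1% of the members, while 35.8% of all genes tested were called (18.8% higher, 17.0% lower). The fold changes of the members ran from -0.37 to 0.27, with 38 above 0 and 35 below (all genes, 6457 above and 6786 below). For 50 members (68.5%) the 95% interval of the change lay within 1.2-fold either way, against 29.4% of all genes, and for 73 of 73 it lay within 1.5-fold, against 71.5% of all genes. Members and all genes were not matched for level, on which the width of an interval depends. Between IXA4 and IXA6, where no gene was called, the shares within 1.2-fold were 89.0% of members and 54.9% of all genes. The same limit holds for the interval shares of the IXA compounds below. None of the 11 calls held when the test asked for more than a 1.2-fold change (edgeR glmTreat), where 1 member had an unadjusted p under 0.05. All 3 Tg libraries lay above all 3 DMSO libraries for 8 members (all genes 21.7%) and below them for 12 (all genes 21.8%), and the groups overlapped for 53.

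**Figure D2:**
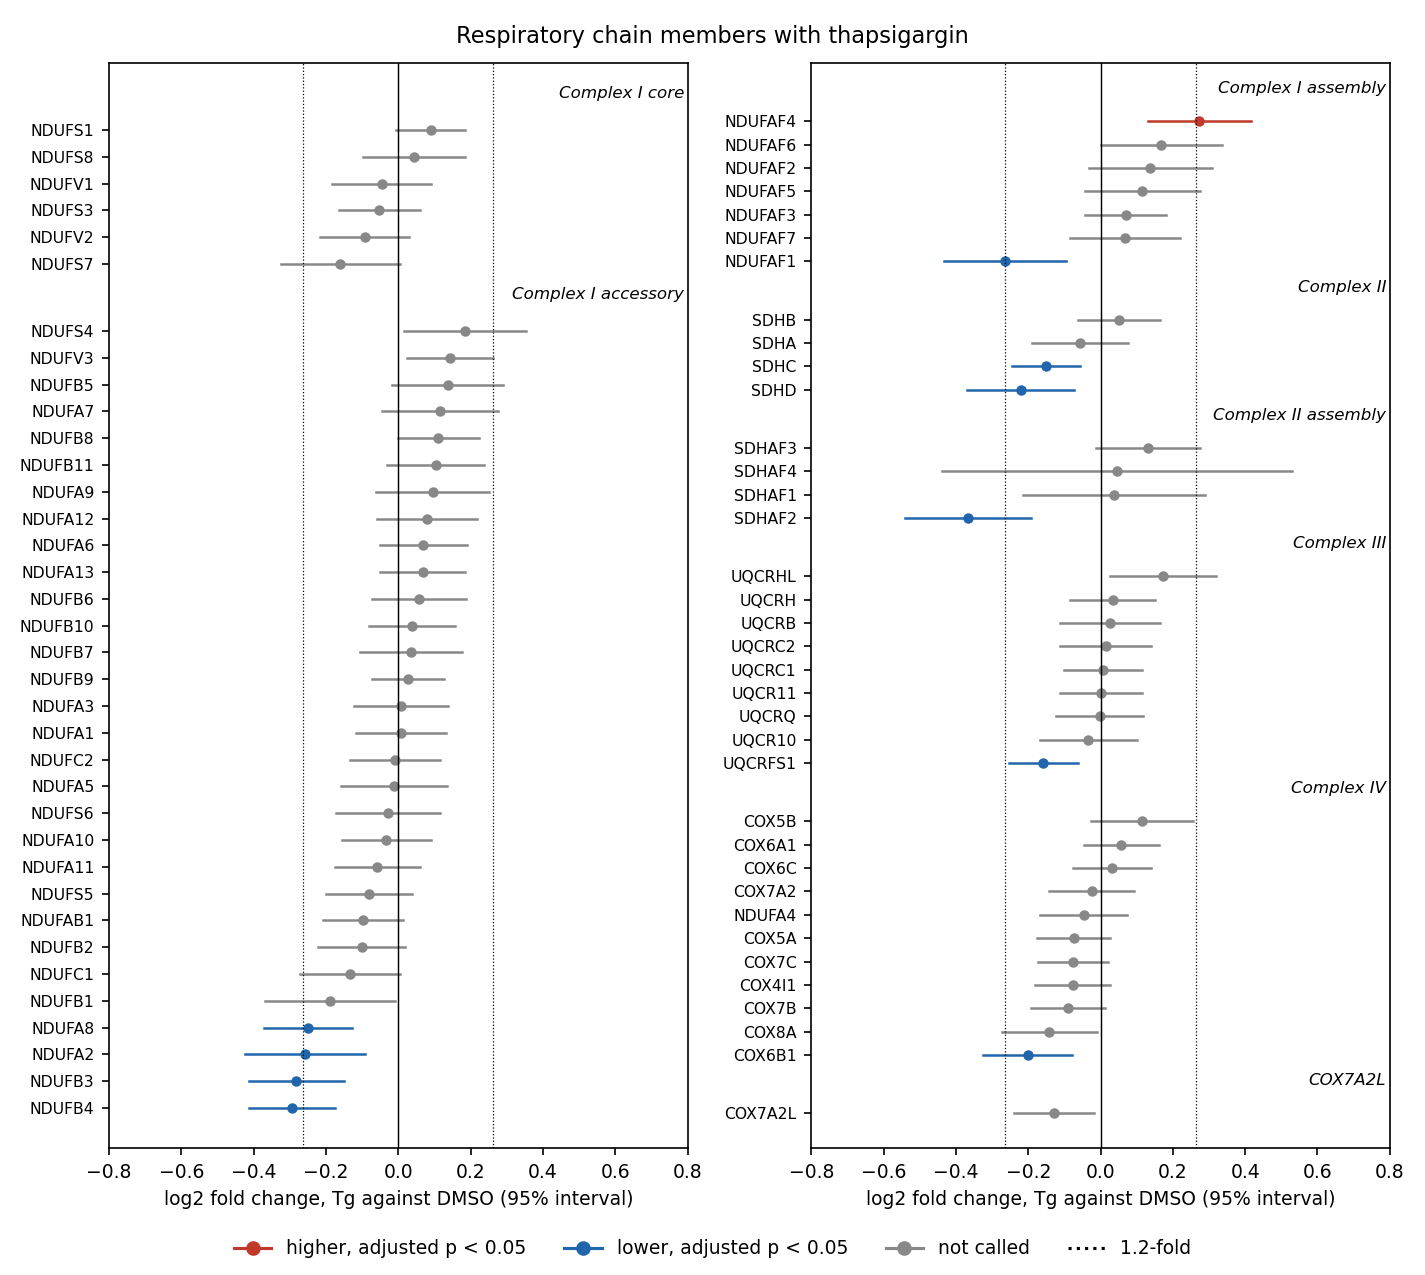
Log2 fold change of single members, Tg against DMSO (points, horizontal axis), with its 95% interval (lines), grouped by complex and role, and the 1.2-fold bounds dotted. The 10 members that fell are blue, NDUFAF4 is red, and the widest interval is that of SDHAF4, which had 30 or more counts in each library and a mean DMSO level of 2.96 CPM.

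In complex I, the assembly factors moved in both directions. NDUFAF4, an assembly factor of early intermediates, was at 58.5, 63.0 and 62.5 CPM in DMSO and 76.2, 69.6 and 76.5 CPM in Tg. All Tg libraries were above all DMSO libraries, with a log2 fold change of 0.27 ± 0.07 (SE), adjusted p = 0.00335. NDUFAF1, which helps to build the membrane arm, was at 20.8, 20.6 and 23.5 CPM in DMSO and 17.7, 18.4 and 17.9 CPM in Tg. Every Tg library was below every DMSO library, at a log2 fold change of -0.26 ± 0.08 (SE) and an adjusted p of 0.0142. Without DMSO replicate 3, the highest DMSO library for this gene, the adjusted p was 0.0878. NDUFAF2, a late assembly factor, gave 0.14 ± 0.08 (SE), adjusted p = 0.2001. It and the other 4 were not called, and their fold changes were all above 0, from 0.07 (NDUFAF7) to 0.17 (NDUFAF6, adjusted p = 0.109).

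Of the 30 accessory subunits of complex I, 4 fell and none rose, and of the 7 core subunits none was called (all genes, 17.0% lower). NDUFB4, a subunit of the membrane arm, was at 105, 108 and 109.9 CPM in DMSO and 83.1, 89.0 and 91.0 CPM in Tg. The 3 Tg libraries were the lowest of all 14 libraries, with a log2 fold change of -0.30 ± 0.06 (SE), adjusted p = 0.000275. NDUFB3, another membrane arm subunit, was at 64.6, 72.6 and 65.4 CPM in DMSO and 58.1, 50.7 and 57.7 CPM in Tg. Again every Tg library was below every other library, and the fold change was -0.28 ± 0.06 (SE), adjusted p = 0.00118. NDUFA8, a subunit on the intermembrane space side, was at 87.5, 90.7 and 89.6 CPM in DMSO and 75.9, 72.4 and 76.8 CPM in Tg. The DMSO libraries were close together and all above Tg, at a fold change of -0.25 ± 0.06 (SE) and an adjusted p of 0.00171.

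NDUFA2, a subunit of the peripheral arm, was at 46.0, 48.9 and 55.1 CPM in DMSO and 40.7, 42.9 and 41.8 CPM in Tg. The groups did not overlap and the log2 fold change was -0.26 ± 0.08 (SE), adjusted p = 0.0143, but without DMSO replicate 3, the highest DMSO library, the adjusted p was 0.101. Of the core subunits of the peripheral arm, which binds NADH and carries electrons, the values were 0.09 ± 0.05 (SE) for NDUFS1 (adjusted p = 0.134) and -0.05 ± 0.07 (SE) for NDUFV1 (adjusted p = 0.631). NDUFAB1, the mitochondrial acyl carrier protein, gave -0.10 ± 0.05 (SE), adjusted p = 0.161. Summed over its 44 subunits and assembly factors, complex I was at 3648 ± 129 CPM in DMSO and 3653 ± 62.3 in Tg (SD, n = 3 each), a difference of 0.15%.

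Exons of some of these genes overlap exons of a neighbour on the opposite strand. Whether reads from the shared bases were told apart is not known (strand setting of the counting: not given in the sources used here). Such overlaps were present for NDUFA2 (IK and TMCO6), NDUFB3 (FAM126B), SDHC (CFAP126) and SDHD (TIMM8B). With Tg the neighbours gave -0.05 ± 0.06 (SE), adjusted p = 0.544 for IK, 0.08 ± 0.09 (SE), adjusted p = 0.551 for TMCO6, 0.19 ± 0.07 (SE), adjusted p = 0.0511 for FAM126B, 0.04 ± 0.21 (SE), adjusted p = 0.905 for CFAP126 and -0.15 ± 0.07 (SE), adjusted p = 0.0837 for TIMM8B, and none was called. Of the 5, IK and TIMM8B had an estimate below 0, and the part of the overlaps in the member calls was not tested.

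In complex II, both membrane anchor subunits and 1 of 4 assembly factors fell (all genes, 17.0% lower), and the catalytic subunits were not called. SDHAF2, the factor needed to attach FAD to SDHA, was at 22.9, 25.3 and 24.0 CPM in DMSO and 19.7, 16.5 and 19.8 CPM in Tg. Its log2 fold change of -0.37 ± 0.08 (SE), adjusted p = 0.00151, was the lowest of the 73, and Tg replicate 2 was its lowest library. SDHD was at 83.1, 93.5 and 93.3 CPM in DMSO and 76.8, 73.8 and 80.9 CPM in Tg. The groups did not overlap, with a fold change of -0.22 ± 0.07 (SE) and an adjusted p of 0.0177, which was 0.0802 without DMSO replicate 2 and 0.0702 without DMSO replicate 3. SDHC, the other anchor, was at 139, 136 and 134 CPM in DMSO and 121, 121 and 126 CPM in Tg. Its libraries were tight in both groups and did not overlap, at -0.15 ± 0.05 (SE), adjusted p = 0.0110, and 0.0526 when only DMSO and Tg libraries were fitted. The catalytic subunits SDHA and SDHB gave -0.06 ± 0.06 (SE) (adjusted p = 0.528) and 0.05 ± 0.06 (SE) (adjusted p = 0.512). Over its 8 genes complex II was at 579 ± 13.1 CPM in DMSO and 552 ± 8.20 in Tg, a difference of -4.56%. By library the sums were 563.7, 588.3 and 583.7 CPM in DMSO and 551.3, 544.4 and 560.8 CPM in Tg. The groups did not overlap, and the difference of the sums was not tested.

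In complex III, 1 of 9 genes fell (11.1%, below the 17.0% of all genes). UQCRFS1, the Rieske iron-sulfur protein that takes electrons from ubiquinol, was at 141, 138 and 143 CPM in DMSO and 127, 127 and 124 CPM in Tg. The groups were separate and tight, with a log2 fold change of -0.16 ± 0.05 (SE), adjusted p = 0.0103. The core proteins UQCRC1 and UQCRC2 gave 0.01 ± 0.05 (SE) (adjusted p = 0.937) and 0.01 ± 0.06 (SE) (adjusted p = 0.880), and the hinge protein UQCRH gave 0.03 ± 0.06 (SE) (adjusted p = 0.685). Complex III summed to 1594 ± 52.6 CPM in DMSO and 1599 ± 70.8 in Tg, a difference of 0.30%.

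In complex IV, 1 of 11 subunits fell (9.09%, below the 17.0% of all genes). COX6B1, a subunit on the intermembrane space side where cytochrome c docks, was at 138, 156 and 168 CPM in DMSO and 128, 132 and 142 CPM in Tg. The lowest DMSO library lay below the highest Tg library, so the groups overlapped, with a log2 fold change of -0.20 ± 0.06 (SE), adjusted p = 0.0103, and 0.0991 without DMSO replicate 3. Of the other subunits, COX4I1 gave -0.08 ± 0.05 (SE) (adjusted p = 0.252), COX5A -0.07 ± 0.05 (SE) (adjusted p = 0.253), COX6A1 0.06 ± 0.05 (SE) (adjusted p = 0.403), COX7A2 -0.02 ± 0.06 (SE) (adjusted p = 0.779) and NDUFA4 -0.05 ± 0.06 (SE) (adjusted p = 0.574). In all, 8 of the 11 subunits had an estimate below 0, where 6786 of all 13243 genes did. The 11 subunits summed to 1713 ± 82.2 CPM in DMSO and 1648 ± 18.1 in Tg, a difference of -3.76% that lay within the DMSO spread.

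COX7A2L, also called SCAF1, joins complexes III and IV in a supercomplex. It was at 104, 103 and 109.7 CPM in DMSO, 103 and 115 with IXA1, 109, 108 and 106 with IXA4, 105, 104 and 103 with IXA6 and 101, 94.2 and 94.5 with Tg. The 3 Tg libraries were the lowest of the 14, and the difference from DMSO was -0.13 ± 0.05 (SE), adjusted p = 0.0620, which misses the threshold. Against DMSO the estimates were 0.04, 0.03 and -0.02 for IXA1, IXA4 and IXA6, and their libraries overlapped DMSO.

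**Figure D3:**
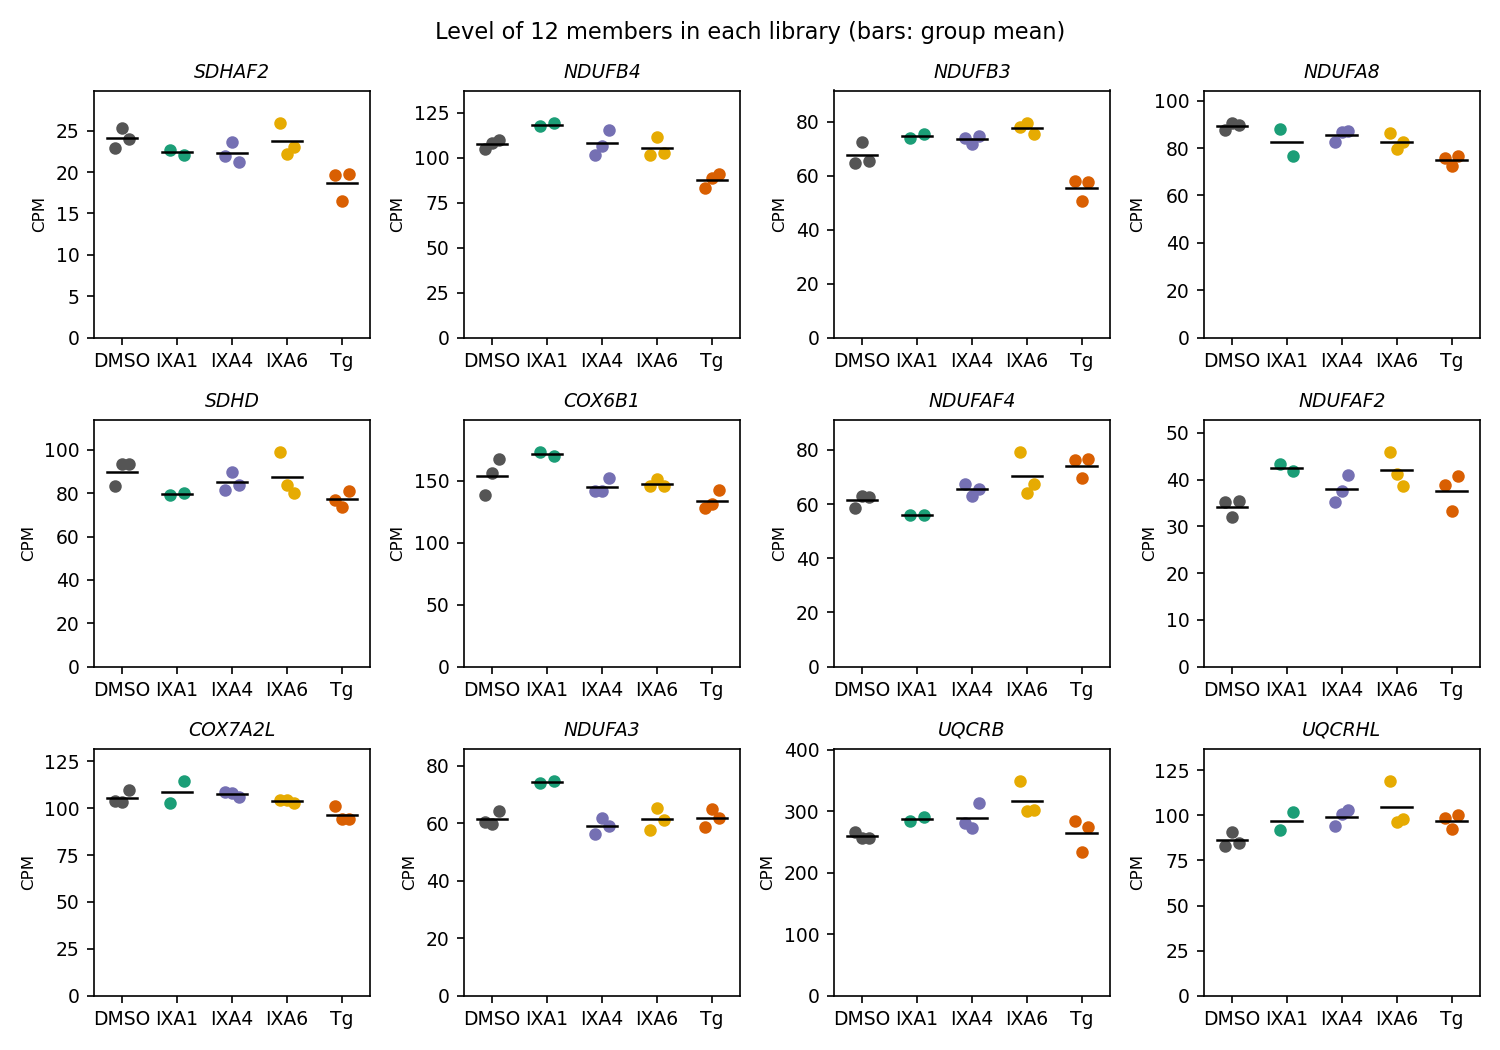
Level in CPM (vertical axes, from 0) of 12 members in each of the 14 libraries (points), by treatment, with the group mean as a bar. The 3 Tg libraries of SDHAF2, NDUFB4, NDUFB3 and COX7A2L are the lowest of all, and both IXA1 libraries of NDUFA3 are the highest.

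With IXA1, 1 member was called, where 2.31% of all genes were. NDUFA3, a small accessory subunit of complex I, was at 60.3, 59.6 and 64.2 CPM in DMSO and 73.9 and 74.7 CPM with IXA1. Both IXA1 libraries were above every other library of the series, at a log2 fold change of 0.28 ± 0.07 (SE) and an adjusted p of 0.0333. The call was lost when any of DMSO replicate 1, DMSO replicate 2 or the IXA1 libraries was left out, with adjusted p of 0.101, 0.138, 0.180 and 0.227. NDUFA3 shares exon bases with TFPT on the opposite strand, which gave -0.00 ± 0.11 (SE), adjusted p = 0.998. NDUFAF2 was at 35.2, 32.0 and 35.5 CPM in DMSO and 43.3 and 41.8 with IXA1, without overlap, and gave 0.31 ± 0.09 (SE), adjusted p = 0.0672. Over all 73 members, 49 estimates were above 0 and 24 below (all genes, 6390 above and 6853 below), and the median of 0.042 was 0.085 without DMSO replicate 3. By role, 26 of the 30 complex I accessory subunits were above 0 and 6 of the 7 core subunits below it. These genes were read in the same libraries and are not independent, and a difference between the roles was not tested. The fitted 95% interval lay within 1.2-fold for 45 members (61.6%; all genes 41.5%).

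With IXA4, none of the 73 members was called by the edgeR or DESeq2 fit over all 14 libraries. In the edgeR fit 6 members had an unadjusted p under 0.05, as did 1216 of all 13243 genes. An edgeR fit of the IXA4 and DMSO libraries alone called 1, and the authors' deposited table for IXA4 has UQCRHL at 0.21 (adjusted p = 0.0295). The background was low as well, at 0.800% of all genes. The 95% interval lay within 1.2-fold for 62 members (84.9%; all genes 55.0%). NDUFAF2 was at 35.1, 37.7 and 40.9 CPM, overlapping DMSO, and gave 0.15 ± 0.08 (SE), adjusted p = 0.629. The highest estimate was 0.35 for SDHAF4, a complex II assembly factor, with an SE of 0.22 at its low level. The 15 panel members reported here and not called with Tg, which take in core, catalytic and best-known subunits, ran from -0.09 (UQCRC2) to 0.31 (NDUFAF2) with IXA1, from -0.10 (UQCRC2) to 0.15 (NDUFAF2) with IXA4 and from -0.16 (SDHA) to 0.29 (NDUFAF2) with IXA6.

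With IXA6, 2 members rose, both of complex III, where 2.29% of all genes were called. UQCRB, a small subunit near the ubiquinone site, was at 267, 256 and 257 CPM in DMSO and 349.8, 301 and 302 CPM with IXA6. The groups did not overlap and IXA6 replicate 1 was the highest, at a log2 fold change of 0.29 ± 0.07 (SE), adjusted p = 0.0213. UQCRHL, a gene nearly identical to the hinge protein gene UQCRH, was at 82.8, 90.9 and 84.7 CPM in DMSO and 119, 96.4 and 98.2 CPM with IXA6. IXA6 replicate 1 again stood highest, and the fold change was 0.28 ± 0.07 (SE), adjusted p = 0.0361. Without IXA6 replicate 1 neither call held, with adjusted p of 0.160 for UQCRB and 0.223 for UQCRHL. The UQCRB call was also lost without DMSO replicate 2 (0.104) or 3 (0.0830), and the UQCRHL call without DMSO replicate 1 (0.135), 2 (0.0639) or 3 (0.117).

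Because reads may be split between near-identical copies, UQCRHL is uncertain on its own. UQCRH was at 167, 179 and 187 CPM in DMSO and 207, 198 and 194 CPM with IXA6, at 0.17 ± 0.06 (SE), adjusted p = 0.121. Counted as 1 gene, a check added after the data were seen, UQCRH and UQCRHL gave 0.21 ± 0.06 (SE), adjusted p = 0.0490. NDUFAF2 was at 46.0, 41.2 and 38.7 CPM with IXA6, above all DMSO libraries, and its 0.29 ± 0.08 (SE), adjusted p = 0.0546, missed the threshold. SDHA gave -0.16 ± 0.06 (SE) (adjusted p = 0.187) and COX5A -0.15 ± 0.05 (SE) (adjusted p = 0.106). The 95% interval lay within 1.2-fold for 54 members (74.0%; all genes 47.4%).

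Set against each other, the 3 compounds differed for few members. IXA4 and IXA6 differed for none of the 73 by edgeR or DESeq2, and 0% of all genes were called. In the edgeR fit 4 members had an unadjusted p under 0.05, as did 1222 of all 13243 genes. The 95% interval of the difference between IXA4 and IXA6 lay within 1.2-fold for 65 members (89.0%; all genes 54.9%). IXA1 was higher than IXA4 for 2 members, where 2.58% of all genes were called: NDUFA3, by 0.33 ± 0.07 (SE), adjusted p = 0.0115, and COX6B1, by 0.24 ± 0.07 (SE), adjusted p = 0.0481. Neither was called without an IXA1 library or without IXA4 replicate 1 or 3, and NDUFA3 alone was called without IXA4 replicate 2. IXA1 differed from IXA6 for 5 members, or 6.85%, where 7.35% of all genes were called. COX6B1 was at 173 and 170.2 CPM with IXA1, 142, 141 and 152 with IXA4 and 146, 152 and 146 with IXA6, and its difference from IXA6 was 0.22 ± 0.07 (SE), adjusted p = 0.0437. The IXA1 libraries were above those of both other compounds.

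NDUFAF4 was at 55.9 and 55.8 CPM with IXA1, 67.4, 63.2 and 65.7 with IXA4 and 79.3, 64.2 and 67.5 with IXA6. The IXA1 libraries were the lowest of the series for this gene, and the difference from IXA6 was -0.33 ± 0.08 (SE), adjusted p = 0.0133. NDUFAF7, an assembly factor of complex I, was at 19.1 and 19.9 CPM with IXA1 and 23.6, 23.8 and 23.5 with IXA6, at -0.28 ± 0.08 (SE), adjusted p = 0.0441. NDUFB10, a membrane arm subunit, was higher with IXA1 by 0.23 ± 0.06 (SE), adjusted p = 0.0330, and NDUFA3 by 0.28 ± 0.07 (SE), adjusted p = 0.0181. Without either IXA1 library, or without IXA6 replicate 1, none of the 5 was called, and IXA1 had only 2 libraries. Over the 5 fits with 1 library left out, the calls of COX6B1 and NDUFAF7 were lost in all 5. That of NDUFB10 was lost in 4, and those of NDUFA3 and NDUFAF4 in 3.

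Tg differed from IXA1 for 19 members (4 higher, 15 lower; 33.9% of all genes, 17.9% higher and 15.9% lower), from IXA4 for 19 (6 higher, 13 lower; 34.4%, 18.4% and 16.0%) and from IXA6 for 17 (4 higher, 13 lower; 31.0%, 16.8% and 14.2%). The share of members called, 26.0%, 26.0% and 23.3%, was below that of all genes each time. By direction the share called lower, 20.5%, 17.8% and 17.8%, was above that of all genes, and the share called higher, 5.48%, 8.22% and 5.48%, was below it. These comparisons share the Tg libraries. Without IXA1 replicate 1 the count against IXA1 was 9, and the count against IXA4 was 11, 10 and 11 without IXA4 replicate 1, 2 or 3 and 12 without Tg replicate 3. The shares of all genes called in these fits are not given. NDUFB3 was lower with Tg, with log2 differences of -0.43 ± 0.07 (SE) against IXA1, -0.40 ± 0.06 (SE) against IXA4 and -0.48 ± 0.06 (SE) against IXA6, with adjusted p of at most 4.65e-05. NDUFB4 gave -0.43 ± 0.06 (SE), -0.30 ± 0.06 (SE) and -0.26 ± 0.06 (SE), with adjusted p of at most 0.00103. NDUFB1, a membrane arm subunit not called against DMSO, was at 44.0, 33.1 and 43.0 CPM in Tg, where replicate 2 was lowest, and gave -0.34 ± 0.10 (SE), -0.30 ± 0.09 (SE) and -0.39 ± 0.09 (SE), with adjusted p of at most 0.00861. SDHAF2 gave -0.26 ± 0.10 (SE), -0.25 ± 0.09 (SE) and -0.34 ± 0.08 (SE), with adjusted p of at most 0.0362. The SDHAF2 call was lost against IXA1 without IXA1 replicate 1 or 2 or Tg replicate 2 and against IXA4 without IXA4 replicate 2 or Tg replicate 2, and the NDUFB1 call against IXA4 without Tg replicate 2. The calls of NDUFB1 against IXA1 and of NDUFB4 against IXA6 were not checked with libraries left out.

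Other subunits were lower with Tg in some of these comparisons. NDUFA2 was lower than with IXA1 (log2 difference -0.42 ± 0.09 (SE), adjusted p = 0.000763) and than with IXA6, at -0.28 ± 0.08 (SE), adjusted p = 0.0100. COX6B1 was lower than with IXA1, at -0.36 ± 0.07 (SE), adjusted p = 0.000179. COX7A2L was lower than with IXA1, at -0.17 ± 0.06 (SE), adjusted p = 0.0283, and than with IXA4, at -0.16 ± 0.05 (SE), adjusted p = 0.0251, and its difference from IXA6 was -0.11 ± 0.05 (SE), adjusted p = 0.140. NDUFAF1 was lower than with IXA1, at -0.29 ± 0.09 (SE), adjusted p = 0.0163, and than with IXA6, at -0.24 ± 0.08 (SE), adjusted p = 0.0295. UQCRFS1 was lower than with IXA4, at -0.12 ± 0.05 (SE), adjusted p = 0.0459, and NDUFA4 than with IXA1, at -0.18 ± 0.06 (SE), adjusted p = 0.0393. Most of these calls were lost when 1 or another library was left out. Against IXA1, the call was lost without IXA1 replicate 2 or Tg replicate 3 for COX7A2L, without IXA1 replicate 1 or 2 for NDUFAF1 and without IXA1 replicate 1 or 2 or Tg replicate 1 or 2 for NDUFA4. Against IXA4, it was lost without IXA4 replicate 1 or 2 or Tg replicate 2 or 3 for COX7A2L and without IXA4 replicate 1, 2 or 3 or Tg replicate 1 or 3 for UQCRFS1. Against IXA6, it was lost without IXA6 replicate 2 for NDUFA2 and without IXA6 replicate 1 or 3 or Tg replicate 1 or 3 for NDUFAF1. The calls of NDUFA2 and COX6B1 against IXA1 held with each library left out.

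Of the 4 members higher with Tg than with IXA1, 3 were assembly factors of complex I: NDUFAF4, NDUFAF6 and NDUFAF7 (0.28 ± 0.08 (SE), adjusted p = 0.0132). NDUFAF4 was higher by 0.41 ± 0.08 (SE) than with IXA1, adjusted p = 0.000299, and by 0.18 ± 0.07 (SE) than with IXA4, adjusted p = 0.0453. Its difference from IXA6, 0.08 ± 0.07 (SE), had an adjusted p of 0.433. NDUFAF6 was at 21.0, 20.7 and 22.3 CPM in Tg, 15.01 and 17.1 with IXA1, 17.6, 17.3 and 19.8 with IXA4 and 17.8, 17.7 and 17.9 with IXA6. The Tg libraries were above all IXA libraries, by 0.41 ± 0.09 (SE), 0.23 ± 0.08 (SE) and 0.26 ± 0.08 (SE), with adjusted p of at most 0.0327. NDUFA9, an accessory subunit at the junction of the arms, was higher with Tg than with IXA4 by 0.23 ± 0.08 (SE), adjusted p = 0.0196, and than with IXA6 by 0.22 ± 0.08 (SE), adjusted p = 0.0329. Of other accessory subunits of the membrane arm, NDUFB8 was higher with Tg than with IXA4 (0.18 ± 0.05 (SE), adjusted p = 0.0120), and NDUFB11 and NDUFB9 were higher than with IXA6 (0.24 ± 0.06 (SE), adjusted p = 0.00693, and 0.18 ± 0.05 (SE), adjusted p = 0.00631). The core subunit NDUFS1 was higher than with IXA1, at 0.14 ± 0.05 (SE), adjusted p = 0.0334. Several of these calls were lost when 1 library was left out. For NDUFAF4 this was so against IXA4 without IXA4 replicate 1, 2 or 3 or Tg replicate 1 or 3, and for NDUFAF7 and NDUFS1 against IXA1 without IXA1 replicate 1 and without IXA1 replicate 1 or 2 or Tg replicate 1 or 3. For NDUFAF6 it was so against IXA1 without IXA1 replicate 1, against IXA4 without IXA4 replicate 1 or 2 or Tg replicate 3 and against IXA6 without IXA6 replicate 2 or Tg replicate 3. For NDUFA9 it was so against IXA4 without IXA4 replicate 1 or Tg replicate 3 and against IXA6 without IXA6 replicate 2 or 3 or Tg replicate 3, and for NDUFB8 against IXA4 without IXA4 replicate 1. NDUFAF7, NDUFB8, NDUFB9, NDUFB11 and NDUFS1 also share exon bases with neighbours on the opposite strand. Whether reads from the shared bases were told apart is not known, because the strand setting was not given. The neighbour of NDUFB8, HIF1AN, gave -0.30 ± 0.06 (SE), adjusted p = 0.000606 with Tg against DMSO, and that of NDUFB11, RBM10, gave 0.22 ± 0.05 (SE), adjusted p = 0.00269. Of the neighbours of NDUFB9, TATDN1 gave 0.30 ± 0.10 (SE), adjusted p = 0.0173, and MTSS1 -0.21 ± 0.14 (SE), adjusted p = 0.259. Those of NDUFAF7, CEBPZ and PRKD3, gave 0.10 ± 0.06 (SE), adjusted p = 0.192, and 0.10 ± 0.05 (SE), adjusted p = 0.126. That of NDUFS1, EEF1B2, gave 0.09 ± 0.05 (SE), adjusted p = 0.160. All these neighbour values are for Tg against DMSO, and those against the IXA compounds are not given.

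**Figure D4:**
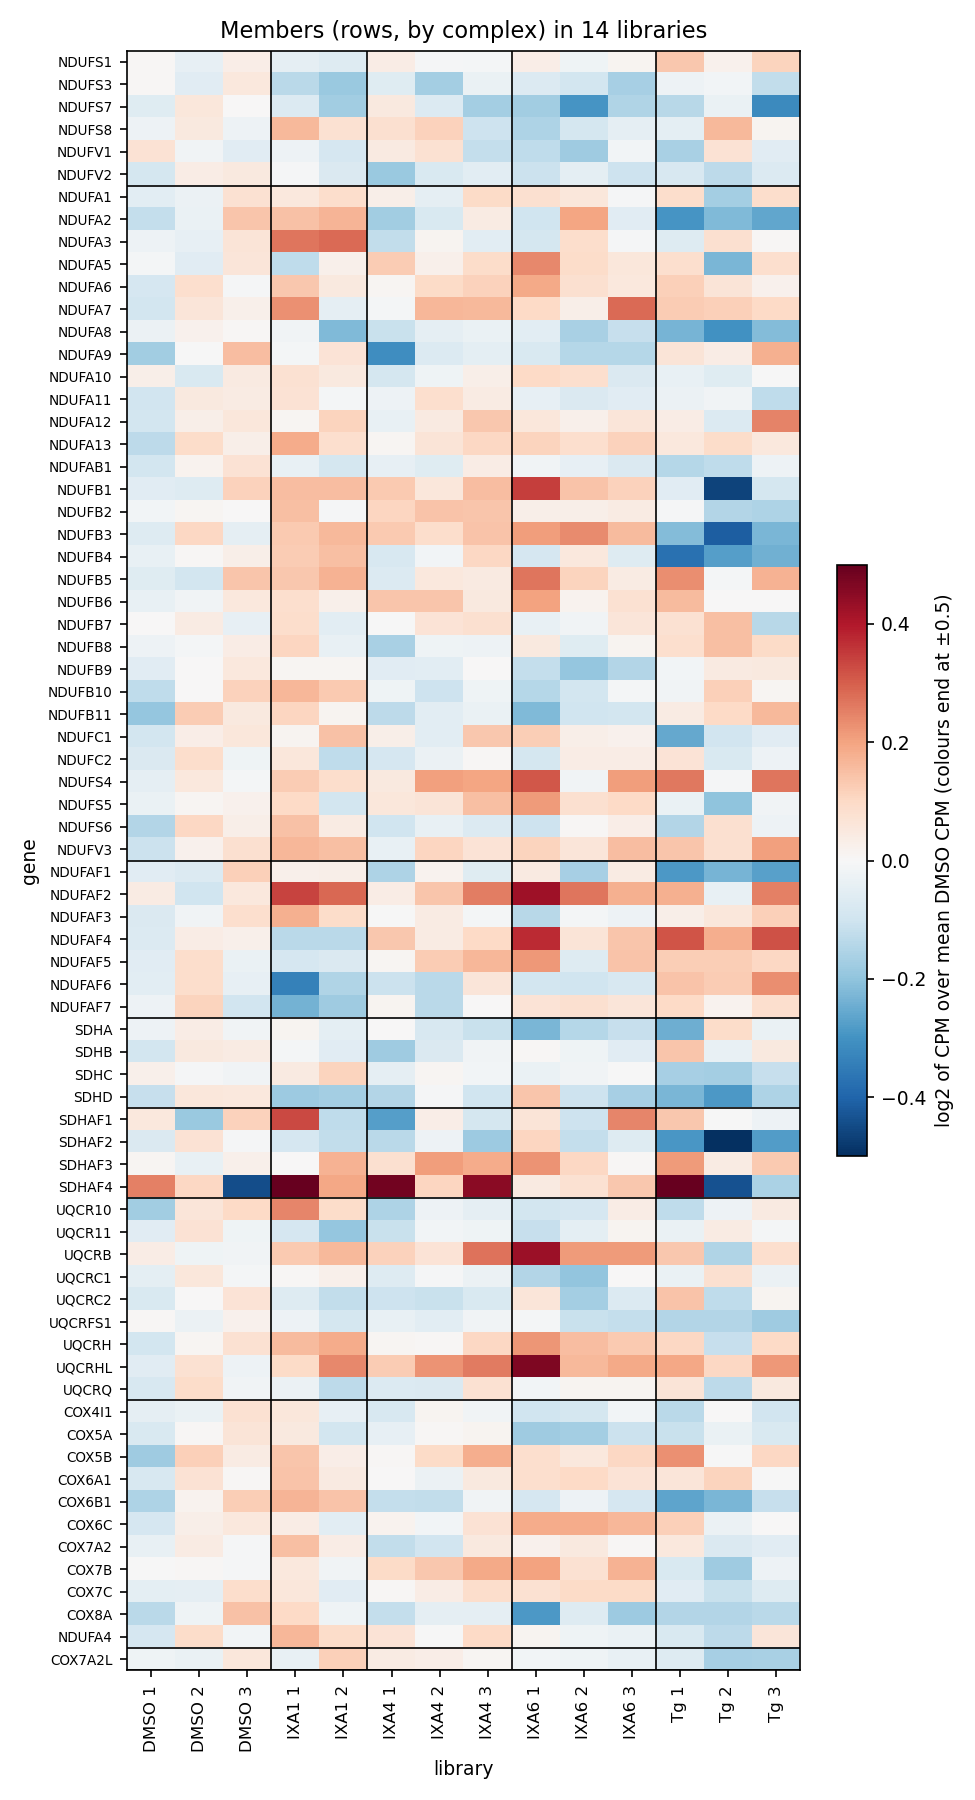
Log2 ratio of single members (rows, by complex and role) to its mean DMSO level in each of the 14 libraries (columns), with colours that end at -0.5 and 0.5. DMSO replicate 1 is the lowest DMSO library for 52 of 73 members and Tg replicate 2 the lowest Tg library for 37.

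In DMSO, IXA4 and Tg, 1 library was the lowest of its group for most members. In IXA6 none was: replicates 1, 2 and 3 were lowest for 30.1%, 38.4% and 31.5% of members, against 36.3%, 29.9% and 33.8% of all genes. DMSO replicate 1 was the lowest of its group for 52 members (71.2%), against 34.7% of all genes. DMSO replicate 3 was the highest for 38, for which no share of all genes was computed. Tg replicate 2 was the lowest of its group for 37 members (50.7%), against 35.7% of all genes, and IXA4 replicate 1 for 43 (58.9%), against 34.2%. Without Tg replicate 2 the number of members called with Tg was 18, of which 7 were higher and 11 lower. Without DMSO replicate 3 it was 9, of which 3 were higher and 6 lower. The shares of all genes called in these fits are not given, so the counts have no background beside them.

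Other genes of oxidative phosphorylation were read from lists by role. CYCS, cytochrome c, was at 360.2, 370.2 and 382 CPM in DMSO and 480.2, 393 and 433 CPM in Tg. It rose with Tg without overlap, by 0.23 ± 0.07 (SE), adjusted p = 0.00887, and CYC1, the cytochrome subunit of complex III that hands electrons to it, gave -0.04 ± 0.05 (SE), adjusted p = 0.640. Of 18 ATP synthase genes, 2 fell with Tg (11.1%, beside 17.0% of all genes) and none rose (beside 18.8%), with a median of -0.04. Both encode the membrane ring that turns with proton flow, ATP5G1 at -0.41 ± 0.05 (SE), adjusted p = 2.39e-06, and ATP5G3 at -0.17 ± 0.04 (SE), adjusted p = 0.00541. ATP5G1 was at 125, 134 and 139 CPM in DMSO and 94.6, 108 and 97.3 CPM in Tg, with the groups apart. With IXA1, 1 of the 18 rose, ATP5J2, a membrane subunit, by 0.25 ± 0.06 (SE), adjusted p = 0.0204, and with IXA4 and IXA6 none was called.

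Of 35 further assembly factors, 6 rose (17.1%) and 5 fell (14.3%) with Tg (median 0.04), beside 18.8% and 17.0% of all genes, and none was called with an IXA compound. The largest rises were CMC1 (0.43 ± 0.09 (SE), adjusted p = 0.000647) and COX19 (0.31 ± 0.11 (SE), adjusted p = 0.0303), both of complex IV assembly, and TTC19 (0.37 ± 0.07 (SE), adjusted p = 0.000110), of complex III. The largest falls were all in complex IV assembly: COX16 (-0.50 ± 0.08 (SE), adjusted p = 2.52e-05), the copper chaperone SCO2 (-0.36 ± 0.08 (SE), adjusted p = 0.00151) and PET100 (-0.34 ± 0.12 (SE), adjusted p = 0.0382). COX16 was at 49.1, 49.2 and 51.9 CPM in DMSO and 38.5, 32.1 and 35.6 CPM in Tg, with the groups apart. Factors for the same complex moved in both directions.

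Of 13 regulators of mitochondrial gene expression, 4 rose (30.8%) and 2 fell (15.4%) with Tg (median 0.03), beside 18.8% and 17.0% of all genes. The 3 largest rises were PPARGC1A, the coactivator PGC-1alpha, at 0.49 ± 0.18 (SE) (adjusted p = 0.0410), ESRRA, a nuclear receptor that works with it, at 0.44 ± 0.08 (SE) (adjusted p = 0.000220), and TFB1M, a methyltransferase of mitochondrial ribosomal RNA, at 0.34 ± 0.08 (SE) (adjusted p = 0.00123). PPARGC1A was low throughout, at 3.46, 3.75 and 3.89 CPM in DMSO and 5.53, 3.79 and 6.24 CPM in Tg, and Tg replicate 2 lay within the DMSO range. PPARGC1B, its relative, fell by 0.39 ± 0.07 (SE) on the log2 scale, adjusted p = 0.000197, and HCFC1, a transcriptional cofactor, by 0.18 ± 0.07 (SE), adjusted p = 0.0340. The motif-binding factors NRF1 and GABPA gave -0.06 ± 0.07 (SE) (adjusted p = 0.551) and 0.06 ± 0.07 (SE) (adjusted p = 0.544). With IXA1, TFB2M, a mitochondrial transcription factor, fell (-0.31 ± 0.08 (SE), adjusted p = 0.0414), and with IXA4 and IXA6 none of the 13 was called.

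The authors' deposited table for Tg lists 2 members as higher and 9 as lower at an adjusted p under 0.05, with a range of fold changes from -0.37 to 0.28. NDUFAF1, called lower with Tg in the edgeR fit, is not among the 9 and is at -0.26 there (adjusted p = 0.0722). In the authors' deposited table for Tg, UQCRHL is at 0.17 (adjusted p = 0.0461) and NDUFAF4 at 0.28 (adjusted p = 0.00178). The authors' deposited table for IXA1 lists 4 members as higher (NDUFA3, NDUFAF2, UQCRB and UQCRH) and 1 as lower (NDUFS3), and NDUFAF2 there is at 0.26 (adjusted p = 0.0452). The authors' deposited table for IXA6 lists 5 as higher (COX6C, NDUFAF2, UQCRB, UQCRH and UQCRHL), with UQCRB at 0.29 (adjusted p = 7.79e-05). The authors' deposited table for IXA4 lists 1, UQCRHL, at 0.21 (adjusted p = 0.0295). The reference group and libraries behind the authors' deposited tables are not named in them.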

How the data were processed

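RNA-seq libraries of 5 groups were compared. The authors deposited raw counts per gene symbol, made on GRCh37.p13 per the submitters' processing notes, with aligner, counter and strand setting not given in the sources used here. Log2 fold changes and adjusted p-values per compound were also deposited by the authors, made with DESeq per the submitters' processing notes. They were only set beside the results.

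Of 15 count columns, 14 matched a sample title. The remaining 1, headed IXA3 replicate 3, matched none and was not used, and no column is headed IXA1 replicate 3, so IXA1 has 2 libraries of the 15 samples. Whether the unused column is the third IXA1 library is not known, and IXA1 values are without it. Counts were fitted with edgeR 4.0.16 in R 4.3.3 (TMM, filterByExpr, glmQLFit, all 14 libraries, group as the only term, biological coefficient of variation 5.66%), and 10 comparisons were tested. P-values measure the spread between libraries of the independent experiments the labels describe. Code was tested on simulated data. Alternatives were other scalings and filters, DESeq2 1.42.0, a minimum fold of 1.2, 2-group fits, the replicate number as a block and leaving out libraries.

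Members and lists were chosen with earlier results of these data known. All members called against DMSO and a panel of 22 symbols are named, except 1 gene that is counted but not reported or drawn here. Between treatments, the 4 largest changes each way and called panel genes are named, and in the other lists the 3 largest each way. SDHAF4, NDUFAF6 and NDUFAF7 in comparisons outside this rule, CYC1, NRF1 and GABPA were named after their values were seen. NDUFB1 with Tg against IXA1, and NDUFB4, COX7A2L and NDUFAF4 with Tg against IXA6, were also given outside this rule. They were not followed through the alternatives in those comparisons. Sequences are from RefSeq and transcript lengths from GENCODE v29.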

Additional observations from a re-analysis of the deposited data

How the results depend on the processing

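The number of members called was the quantity most open to the processing, since most changes were small. The share of all genes called under each alternative is not given, so the counts in this section have no background to be read against. With DESeq2 it was 2 for IXA1, 5 for IXA6, 4 for IXA1 against IXA4 and 9 for IXA1 against IXA6. With genes of at least 5 CPM only it was 4 for IXA6 and 8 for IXA1 against IXA6. When the test asked for more than a 1.2-fold change it was 0 for IXA1, IXA6, Tg, IXA1 against IXA4, IXA1 against IXA6 and Tg against IXA4, 2 for Tg against IXA1 and 1 for Tg against IXA6. Fits of the 2 groups alone gave 2 for IXA1, 1 for IXA4, 4 for IXA6, 6 for IXA1 against IXA4, 11 for Tg against IXA1 and 12 for Tg against IXA4. Upper-quartile scaling gave 18 for Tg, 1 higher and 17 lower, with a member median of -0.036 beside -0.050 for all genes.

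Leaving out 1 library at a time gave 0 to 1 members for IXA1, 0 to 0 for IXA4, 0 to 3 for IXA6, 9 to 18 for Tg, 0 to 1 for IXA1 against IXA4, 0 to 5 for IXA1 against IXA6, 9 to 16 for Tg against IXA1, 10 to 18 for Tg against IXA4 and 12 to 18 for Tg against IXA6. The member median for IXA1 ran from 0.019 to 0.085. Deviations from the group mean in libraries of the same replicate number gave r from -0.21 to 0.24 (median -0.04, 26 pairs). Different numbers gave -0.28 to 0.28 (median 0.02, 52 pairs). Deviations within such small groups must cancel, so these values cannot decide whether the numbers pair the libraries. With the replicate number as a block the count was 1 for IXA1, 0 for IXA4, 1 for IXA6, 11 for Tg, 3 for IXA1 against IXA4, 8 for IXA1 against IXA6, 0 for IXA4 against IXA6, 16, 18 and 17 for Tg against IXA1, IXA4 and IXA6. None of the single gene results followed through the alternatives, which are those of the naming rule and not all called members, had a call that changed sign. The causes of these moves were not tested. Of 1771 values of single named genes under an alternative, 1569 were called in both fits, or in neither with a shift under the SE of the main fit. Of the rest, 176 lost a call, 14 gained one, and 12 were called in neither fit but moved by the SE or more.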

Other observations

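The readthrough row NDUFC2-KCTD14, left out by its hyphen, shares 431 exon bases on the same strand with NDUFC2, so their reads cannot be told apart there. Its log2 fold change with Tg was -0.07 ± 0.07 (SE), adjusted p = 0.483 (edgeR quasi-likelihood test), beside -0.01 ± 0.06 (SE), adjusted p = 0.925, for NDUFC2. Across the 73 members, Spearman's rho between transcript length and the Tg fold change was 0.23, and between DMSO level per kilobase and the fold change -0.24. These are descriptions over genes of the same libraries, and members differ in counting depth along both scales.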
